A study of Mus musculus with 27 samples.

Results

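Transcripts of 9 genes of hepatic insulin signaling and its FOXO outputs were followed in mouse liver across 9 diets: the insulin receptor Insr, the adaptors Irs1 and Irs2, the PI3-kinase subunit Pik3r1, the kinase Akt2, the transcription factors Foxo1 and Foxo3, the coactivator Ppargc1a, and Pck1 of gluconeogenesis. The genes were chosen for their place in this pathway, out of 18194 genes with a probe of their own on the array. Earlier results of these data were known when they were chosen. Diet restriction was the diet with the most changes: 5 of the 8 detected members (Insr, Foxo1, Foxo3, Ppargc1a and Pck1) were higher than on the AIN-93 purified diet, where 29.5% of all detected genes were called (13.5% higher and 16% lower). The same 5 were higher than on the same chow eaten freely, where 36.8% of all genes were called (19.2% higher and 17.6% lower). Irs1, Pik3r1 and Akt2 did not pass the test in either comparison. On the other diets, Pik3r1 fell with high fructose and Ppargc1a fell with the Western diet.

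Insulin that binds its receptor causes phosphorylation of the IRS adaptors, which recruit PI3-kinase and thereby activate AKT. In the fed liver AKT phosphorylates the FOXO transcription factors, which then leave the nucleus, and their target genes fall silent. Between meals insulin falls, FOXO proteins return to the nucleus, and glucagon, through cyclic AMP and the factor CREB, raises the coactivator PGC-1α (Ppargc1a), which acts with FOXO1 on genes of glucose production such as Pck1. These steps are controlled largely by phosphorylation, which an expression array does not measure.

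Livers came from 27 male C57BL/6 mice, 10 weeks old at purchase, that ate their diet for 3 weeks, with 3 mice per diet and 1 array per mouse. The tested diets were diet restriction (lab chow at 75% of the freely eaten amount), lab chow (a natural ingredient diet), a high-fructose diet (60% fructose), a high-fat diet, an atherogenic diet (rich in fat and sucrose, with added cholesterol and cholic acid), a Western diet (42% of calories from fat, with sucrose), a diet deficient in essential fatty acids (EFA-deficient) and a low n-3 diet (7% sunflower oil). The AIN-93 purified diet (AIN-93M) was the control. The low n-3 arrays carry a title and a diet tag that name a DHA supplement, and were assigned by their description. The labels give no genotype beyond the strain. Mice were not fasted and were killed in the morning, and the hour at which restricted mice received their food is not given in the sources used here.

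Values are log2 intensities of Affymetrix mouse arrays, normalized by the authors with GCRMA, with 2.29 as their floor. Only probes with a diet mean above log2(100), here called the detection level, in at least 1 diet were kept, and kept probes of a gene were averaged. Across arrays the median of kept probes lay between 8.22 and 8.38. Differences were tested with limma over 6478 genes, and a gene was called at an adjusted p below 0.05. A percent of control is 2 to the power of the log2 difference, times 100, with its 95% confidence interval. All 8 hepatocyte markers on the array were kept, while 0 of 5 cholangiocyte, 0 of 6 T and NK cell, 0 of 4 adipocyte, 0 of 4 pancreatic acinar and 0 of 5 skeletal muscle markers were. In whole liver, fewer cells of a type and less RNA per cell cannot be told apart.

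The 9 genes have 27 probes that list their symbol alone, and 17 of these were kept, for 8 genes. Irs2 has 1 such probe, whose mean stayed below the detection level on every diet. Of the 3 Insr probes, 1 was kept, and the other 2 lay at the lowest value of the table on 24 and 22 of 27 arrays. A Foxo1 probe (1416982_at) and a Ppargc1a probe (1437751_at) passed only through diet restriction, but both genes have other kept probes that passed on further diets.

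**Figure D1:**
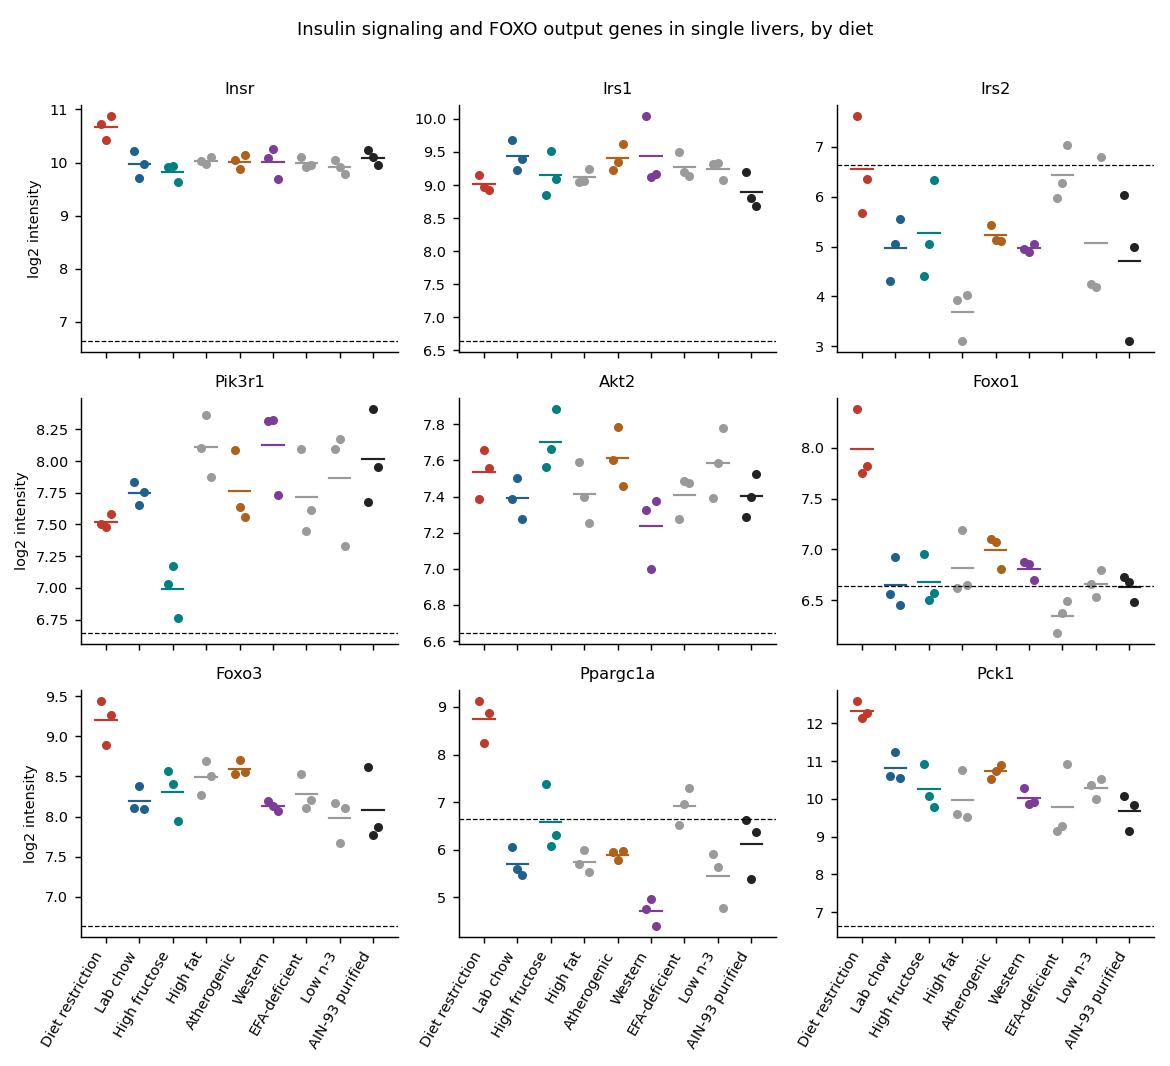
Log2 intensity (y axis) of the 9 genes in single livers on each of 9 diets (x axis). Each point is a liver, each bar a diet's mean, and dashes mark the detection level. The 3 diet restriction livers lie above the other 24 livers for Insr, Foxo1, Foxo3, Ppargc1a and Pck1. The share of all genes that separate in this way is not given here.

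Insr, which encodes the receptor that starts the cascade, had log2 values of 10.72, 10.42 and 10.87 in diet-restricted livers, against 10.23, 10.10 and 9.95 in AIN-93 livers and 10.22, 9.70 and 9.97 in lab chow livers. The restricted livers did not overlap with either diet, and their lowest value lay above the highest of all other livers, 10.25 on the Western diet. For this and the other members, the share of all genes with such a separation is not given here. Insr was 149% of AIN-93 (95% confidence interval 121 to 185, limma, adjusted p = 0.015) and 163% of lab chow (132 to 202, adjusted p = 0.00081). The Insr call against AIN-93 was lost without AIN-93 replicate 3 (log2 difference 0.51, adjusted p = 0.076) or diet restriction replicate 3 (0.48, adjusted p = 0.074), and with all 3 probes averaged (0.20, adjusted p = 0.054). On the other diets Insr was not called, with means between 82.9% of AIN-93 on high fructose (67.0 to 103) and 96.1% on high fat (77.6 to 119).

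Irs1, the adaptor that insulin signaling in liver shares with muscle and fat, had its lowest mean, 8.90, on AIN-93 and its highest, 9.44, on the Western diet. The 3 restricted livers were at 9.15, 8.97 and 8.93, the AIN-93 livers at 9.20, 8.80 and 8.68, and the lab chow livers at 9.68, 9.23 and 9.40. Restricted and AIN-93 livers overlapped, whereas restricted livers all lay below those on lab chow. Neither difference was called, at 109% of AIN-93 (80.9 to 146, adjusted p = 0.78) and 74.7% of lab chow (55.5 to 100.5, adjusted p = 0.12). Lab chow was 146% of AIN-93 (108 to 196, adjusted p = 0.10), the Western diet 146% (109 to 197, adjusted p = 0.10) and the atherogenic diet 142% (106 to 191, adjusted p = 0.13), and none of these passed. The Western mean rested on 1 liver at 10.04, beside 9.12 and 9.17. In the order of the 9 diet means, no neighbours were free of overlap.

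Irs2, the adaptor whose transcript is itself a known FOXO target in liver, was read by a single probe near or below the detection level. Its values were 7.61, 5.68 and 6.35 in restricted livers, against 6.04, 3.11 and 5.0 in AIN-93 livers and 4.30, 5.05 and 5.55 in lab chow livers. The EFA-deficient livers, at 5.97, 6.28 and 7.03, came next. Of all 27 livers, 3 lay above the level of 6.64, on diet restriction (7.61), the EFA-deficient diet (7.03) and the low n-3 diet (6.80). With all probes entered, Irs2 differed by 1.83 between diet restriction and AIN-93 on the log2 scale (SE 0.73, adjusted p = 0.254) and by 1.71 between the EFA-deficient diet and AIN-93 (adjusted p = 0.306), so neither was called. Without diet restriction replicate 2, the lowest of its group, the gene passed the filter, and only through the diet restriction mean. It was then called against lab chow (2.01, adjusted p = 0.043) but not against AIN-93 (2.27, adjusted p = 0.063). As the removal itself raised that mean, the call is not taken as a result.

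Pik3r1, whose p85α product holds the catalytic subunit of PI3-kinase at the IRS proteins, was the member that answered to high fructose. Its values were 7.03, 7.17 and 6.76 in high-fructose livers, against 7.68, 8.41 and 7.95 in AIN-93 livers. All 3 high-fructose livers lay below every liver of every other diet, the next lowest being a low n-3 liver at 7.33. Pik3r1 was 49.2% of AIN-93 (35.5 to 68.2, adjusted p = 0.0052), the only member called on that diet, where 3.91% of all genes were called (1.17% higher and 2.73% lower). Both kept probes fell, 1438682_at to 61.3% (adjusted p = 0.017), while 1425514_at lay below the detection level in all high-fructose livers and was at least 1.98-fold lower (adjusted p = 0.016). Fitted on these diets alone, the difference kept its size but not its call (adjusted p = 0.12), and with all probes entered it was -0.78 (adjusted p = 0.054). Under diet restriction Pik3r1 was at 7.50, 7.48 and 7.58, below all livers on AIN-93 and on lab chow, at 71.1% of AIN-93 (51.3 to 98.5, adjusted p = 0.19) and 85.3% of lab chow (61.6 to 118, adjusted p = 0.46). The kept probes differed there, with 54.5% of AIN-93 for 1425514_at and 92.9% for 1438682_at, neither called.

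Akt2, the AKT isoform through which insulin acts on liver glucose and lipid metabolism, varied least, with diet means between 7.23 on the Western and 7.70 on the high-fructose diet. Restricted livers were at 7.39, 7.66 and 7.56, against 7.29, 7.40 and 7.53 in AIN-93 livers and 7.39, 7.50 and 7.28 in lab chow livers, and the groups overlapped. The interval of the difference ran between 91.0% and 132% of AIN-93 (adjusted p = 0.59) and between 91.8% and 133% of lab chow (adjusted p = 0.41). On high fructose all 3 livers, at 7.56, 7.66 and 7.88, lay above the AIN-93 livers, at 123% (102 to 148), without passing the test (adjusted p = 0.16). Its value rests on 1 probe (1424480_s_at), and the other 2 Akt2 probes were not kept.

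Foxo1, the main FOXO factor of the liver, lay near the detection level in AIN-93 and lab chow livers and clearly above it under diet restriction. Its values were 8.38, 7.75 and 7.82 in restricted livers, against 6.73, 6.68 and 6.48 in AIN-93 livers and 6.56, 6.93 and 6.45 in lab chow livers. The lowest restricted liver stood above the highest of the other 24, a high-fat liver at 7.19. Foxo1 was 256% of AIN-93 (199 to 330.0, adjusted p = 1.8e-05) and 253% of lab chow (197 to 326, adjusted p = 4.5e-06). The probes above the detection level on every diet gave 262% (1416981_at) and 225% (1416983_s_at) of AIN-93, and 239% and 226% of lab chow. The third, 1416982_at, lay below that level in all AIN-93 and lab chow livers and was at least 1.22-fold higher under restriction. As it was kept only through diet restriction, it is not taken as support, although it is part of the average of the gene. The lowest mean of Foxo1 was on the EFA-deficient diet, at 82.3% of AIN-93 (64.0 to 106, adjusted p = 0.35).

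Foxo3, a FOXO factor with overlapping targets, was expressed above the detection level on all 27 arrays. Restricted livers were at 9.43, 8.90 and 9.26, against 8.62, 7.77 and 7.87 in AIN-93 livers and 8.11, 8.38 and 8.10 in lab chow livers. The restricted livers again stood above all others, of which the highest was an atherogenic liver at 8.71. Foxo3 was 216% of AIN-93 (162 to 289, adjusted p = 0.00084) and 201% of lab chow (150.2 to 268, adjusted p = 0.00051), and both kept probes were called in both comparisons. AIN-93 replicate 1 was the highest control liver, and without it Foxo3 was also called on the high-fat (log2 difference 0.67, adjusted p = 0.032) and atherogenic diets (0.78, adjusted p = 0.013), against 0.40 (adjusted p = 0.23) and 0.51 (adjusted p = 0.12) with it.

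**Figure D2:**
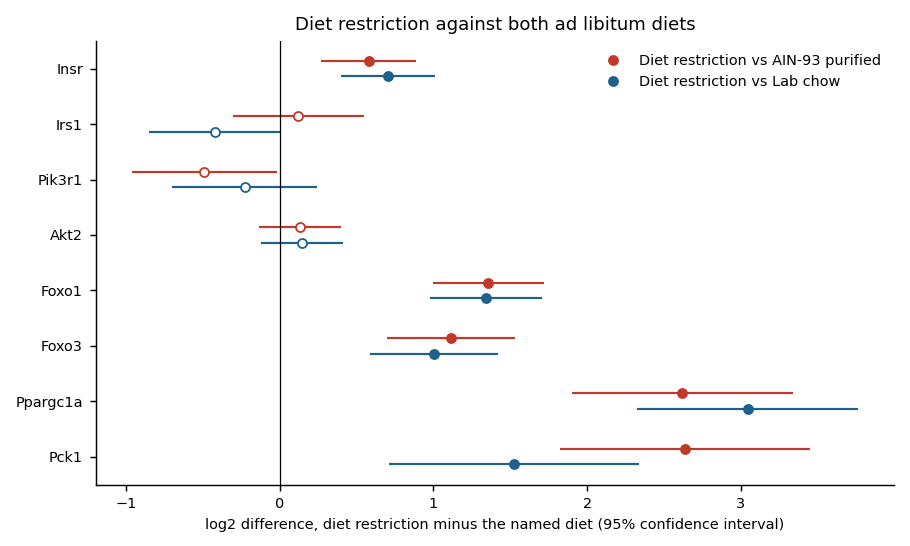
Log2 difference (x axis) of the 8 detected genes (y axis) between diet restriction and AIN-93 (red) and between diet restriction and lab chow (blue), with 95% confidence intervals. Filled points have an adjusted p below 0.05. Insr, Foxo1, Foxo3, Ppargc1a and Pck1 lie right of 0 in both, while Irs1, Pik3r1 and Akt2 are open in both.

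Ppargc1a and Pck1, the coactivator and the enzyme at the end of the chain, both carry near their start sites the core of the element bound by CREB, the factor that cyclic AMP activates. The 250 bases before each RefSeq start site are shown because these 2 genes had the largest log2 differences of the members under diet restriction and were the only ones with this core among the 8 members whose promoter was in the table, Insr being without an entry. Coordinates are those of GRCm38.p6, chr2:173152823-173153072 on the plus strand for Pck1 and chr5:51567726-51567975 on the minus strand for Ppargc1a. Capitals mark the core, which reads TGACGT on the opposite strand.
Pck1: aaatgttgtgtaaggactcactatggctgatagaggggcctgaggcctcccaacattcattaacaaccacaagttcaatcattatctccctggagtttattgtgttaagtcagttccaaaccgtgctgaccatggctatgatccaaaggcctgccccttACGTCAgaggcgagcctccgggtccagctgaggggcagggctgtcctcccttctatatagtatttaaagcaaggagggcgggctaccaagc
Ppargc1a: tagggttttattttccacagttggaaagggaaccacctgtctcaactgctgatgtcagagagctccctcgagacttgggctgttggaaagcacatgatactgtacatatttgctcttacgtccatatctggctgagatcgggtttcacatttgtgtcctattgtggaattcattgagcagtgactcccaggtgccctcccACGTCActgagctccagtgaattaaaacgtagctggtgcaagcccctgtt
The core begins 91 bases before the start site in Pck1 and 50 bases before it in Ppargc1a. Of 32851 RefSeq promoters of 300 bases (250 before and 50 after the start), 7.51% hold TGACGT on either strand and 1.79% hold the full palindrome TGACGTCA, which contains that core and is in neither. The FOXO motif GTAAACA, found in 3.65% of promoters, was in none of the 12 promoters of these 8 genes. The related CAAAACA, found in 6.28%, was in the promoters of Irs1, at 2 places, and Irs2. A match is a run of letters, and binding was not measured here.

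Ppargc1a, the coactivator PGC-1α, was the member with the widest span of diet means. Its values were 9.12, 8.25 and 8.87 in restricted livers, against 6.63, 5.38 and 6.37 in AIN-93 livers and 6.06, 5.58 and 5.46 in lab chow livers. Averaged over its 5 kept probes, all 6 livers on AIN-93 and lab chow lay below the detection level of 6.64 and all 3 restricted livers above it. The log2 difference was 2.62 from AIN-93 (SE 0.35, adjusted p = 2.4e-05) and 3.04 from lab chow (SE 0.35, adjusted p = 7.6e-07). Its size is uncertain, because some probes lay below the level on AIN-93 or lab chow. Some probes had only part of the AIN-93 livers above it. Of these, 1434099_at was 371% of AIN-93, with 2 of 3 AIN-93 livers below the level. Probe 1434100_x_at was 378% of AIN-93, with 1 AIN-93 liver below the level, and 1460336_at differed by 3.49 on the log2 scale. The AIN-93 values of 1460336_at were 7.28, 4.74 and 7.28, so replicate 2 of the control was low there. The other probes were below the level in all AIN-93 livers, and 1456395_at was at least 5.22-fold higher. Probe 1437751_at, kept only through diet restriction, averaged 7.57 there, above the level of 6.64. It is part of the average of the gene but is not taken as support for the difference.

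On the Western diet Ppargc1a was at 4.75, 4.96 and 4.40, below all 3 AIN-93 livers and the lowest mean of the 9 diets. This was the only member called on that diet (log2 difference -1.42, adjusted p = 0.011), where 8.78% of all genes were called (4.31% higher and 4.48% lower). All 5 probes lay below the detection level in every Western liver, and their average did so in every AIN-93 liver, so no fold is given. The call was lost without AIN-93 replicate 1 (-1.17, adjusted p = 0.060) or replicate 3 (-1.30, adjusted p = 0.051). On the EFA-deficient diet, 2 of 3 livers passed the level, at 6.95 and 7.31 beside 6.51, but the difference from AIN-93 was not called (0.80, adjusted p = 0.16).

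**Figure D3:**
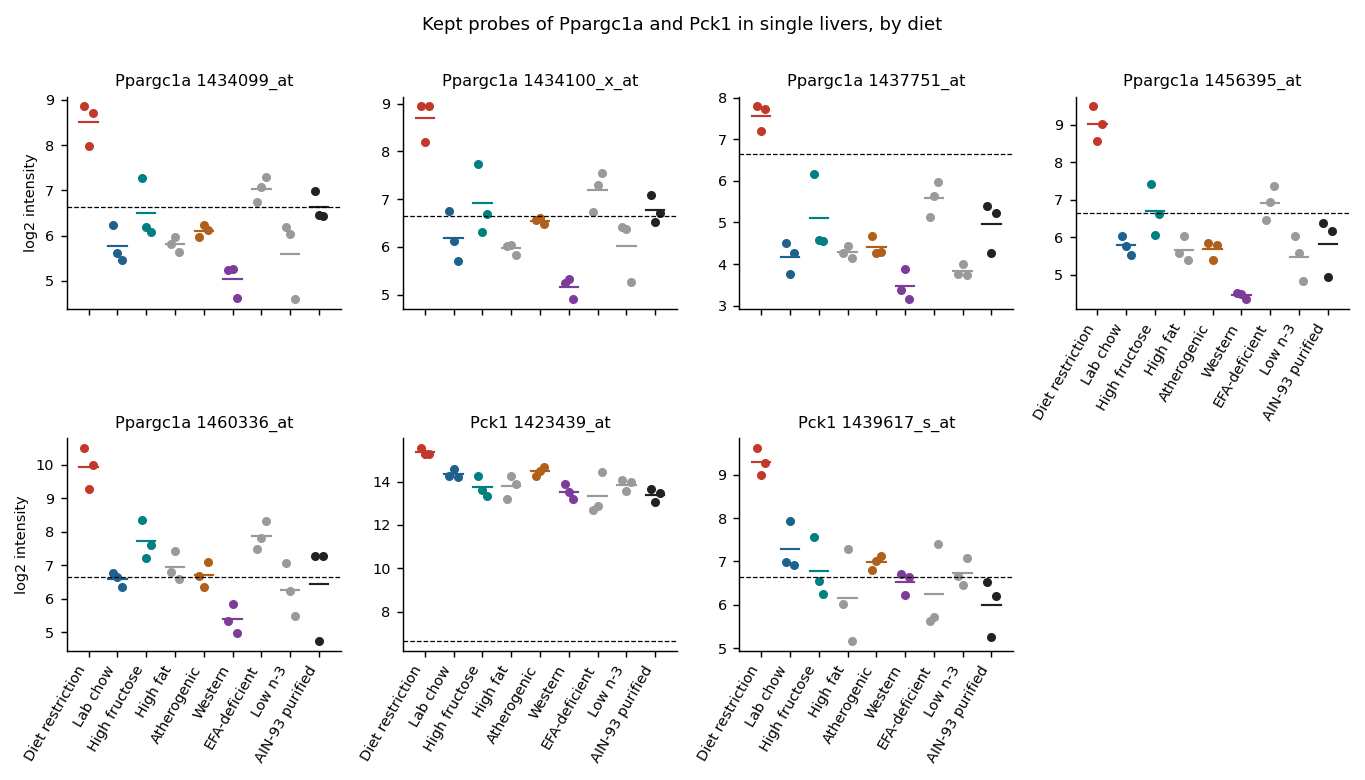
Log2 intensity (y axis) of the 5 kept probes of Ppargc1a and the 2 kept probes of Pck1 in single livers on 9 diets (x axis). Each point is a liver, each bar a diet's mean, and dashes mark the detection level. In every panel the 3 diet restriction livers lie above the other 24, and several panels hold livers below the detection level. Probe 1437751_at was kept only through its diet restriction mean, so its panel is no support for that order.

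Pck1, the cytosolic PEP carboxykinase that commits carbon to glucose production, was higher under diet restriction with both kept probes. Its values were 12.58, 12.13 and 12.28 in restricted livers, against 10.08, 9.16 and 9.83 in AIN-93 livers and 10.61, 11.25 and 10.56 in lab chow livers. The restricted livers again stood above the other 24, of which the highest was a lab chow liver at 11.25. Pck1 was 623% of AIN-93 (354 to 1093, adjusted p = 9.7e-05) and 287% of lab chow (164 to 505, adjusted p = 0.0042). Probe 1423439_at, above the detection level on every diet, was 393% of AIN-93 (adjusted p = 0.00069) and 205% of lab chow (adjusted p = 0.025). Probe 1439617_s_at lay below that level in all AIN-93 livers and was at least 6.26-fold higher than AIN-93 (adjusted p = 9.5e-05) and 404% of lab chow (adjusted p = 0.0027), so the size of the averaged difference depends on it.

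Lab chow itself lay above AIN-93 for Pck1, at 217% (123 to 380.4), with no overlap of the livers and an adjusted p of 0.077. The atherogenic livers, at 10.53, 10.75 and 10.90, did not overlap with AIN-93 either, at 205% (117 to 360.1, adjusted p = 0.10). In the order of diet means, diet restriction came before lab chow with no overlap, and the lab chow and atherogenic livers overlapped. The lowest atherogenic liver, at 10.53, lay barely above the highest low n-3 liver, at 10.52. Of diets with lower means, a high-fructose liver and an EFA-deficient liver, each at 10.92, lay above all atherogenic livers. The EFA-deficient livers were spread over 9.16, 9.29 and 10.92, with replicate 3 apart from the others.

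Against AIN-93, 7 of 64 pairs of member and diet were called. Of the 7, 5 were under diet restriction, where 29.5% of all genes were called. The others were 1 on high fructose (3.91% of all genes) and 1 on the Western diet (8.78%). By limma, 0 of 8 members were called on the lab chow, high-fat, atherogenic, EFA-deficient and low n-3 diets. Among all genes the shares called were 4.21% on lab chow (2.02% higher and 2.19% lower), 9.34% on high fat (6% higher and 3.33% lower) and 14.9% on the atherogenic diet (9.03% higher and 5.88% lower). The EFA-deficient diet had 5.51% of genes called, with 3.04% higher and 2.47% lower, and the low n-3 diet 1.07%, with 0.34% higher and 0.726% lower. Some differences had an unadjusted p below 0.05 in limma but were short of the adjusted threshold. On the diets with 0 members called, these were Irs1 and Pck1 on lab chow and Ppargc1a on the EFA-deficient diet. Foxo1, Foxo3, Irs1 and Pck1 on the atherogenic diet were the others, and all 7 were above AIN-93. On the remaining diets, Irs1 on the Western diet and Akt2 on high fructose were also above AIN-93. Pik3r1 under diet restriction was below it, at 71.1%. With array weights, Irs1 and Pck1 were also called on lab chow, Foxo3 on high fat and Irs1 on the Western diet. Foxo1, Foxo3, Irs1 and Pck1 were then called on the atherogenic diet. The share of all genes called with those weights was also higher, at 14.1%, 22.8%, 17.8% and 27.8% on these diets.

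**Figure D4:**
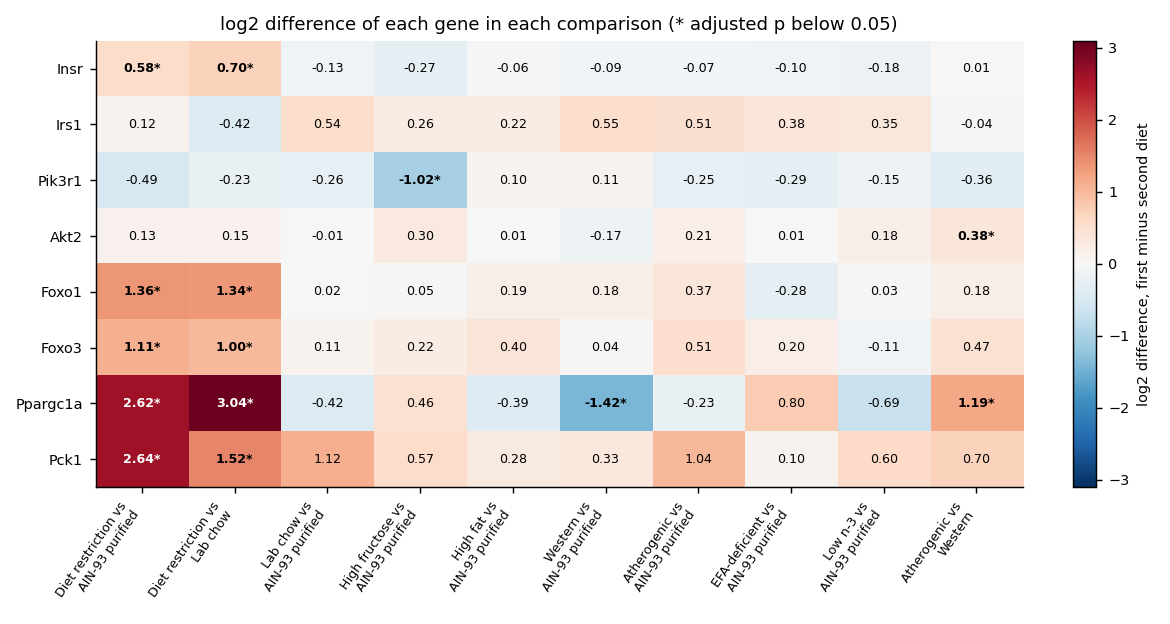
Log2 difference of the 8 detected genes (rows) in 10 comparisons (columns), as the first minus the second diet of each label. Red is higher in the first diet, blue is lower, and an asterisk marks an adjusted p below 0.05. Of 14 asterisks, 10 are in the diet restriction columns, where 29.5% (against AIN-93) and 36.8% (against lab chow) of all genes were called.

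The atherogenic diet was set against the Western diet, which is likewise rich in fat and sucrose. The atherogenic diet held more cholesterol and also cholic acid. Akt2 was at 7.60, 7.78 and 7.46 in atherogenic livers, against 7.33, 7.00 and 7.38 in Western livers, which did not overlap. It was 130.1% of Western (108 to 157, adjusted p = 0.046). Ppargc1a was at 5.94, 5.78 and 5.96 in atherogenic livers, against 4.75, 4.96 and 4.40 in Western livers (log2 difference 1.19, adjusted p = 0.020), all below the detection level as the average of its probes. These were the 2 members called, where 17.8% of all genes were called (11.3% higher and 6.5% lower). The Akt2 call was lost without Western replicate 2 (0.26, adjusted p = 0.22) and without atherogenic replicate 1 or 2 (adjusted p = 0.094 and 0.19), and the Ppargc1a call without Western replicate 3 (1.04, adjusted p = 0.094) or atherogenic replicate 1 (1.17, adjusted p = 0.057). Foxo3 was 138% of Western (104 to 185, adjusted p = 0.11), uncalled although the livers did not overlap. With only the diets compared in the fit, Akt2 was not called (adjusted p = 0.17), while Foxo3 (adjusted p = 0.045) and Pck1 (log2 difference 0.70, adjusted p = 0.049) were. Kupffer cell markers moved with this comparison: 9 of 9 kept markers were higher in atherogenic livers. The summed linear intensity of all 12 markers on the array, of which Marco, Timd4 and Cd68 were not kept, was 9048 to 16174. In Western livers it was 1726 to 2805. The part of these markers in the Akt2 and Ppargc1a differences was not tested.

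Under diet restriction, stellate cell marker sums lay below those on AIN-93, while Kupffer cell and endothelial sums overlapped with AIN-93. All of them overlapped with lab chow. Among all genes, 16% were called lower than AIN-93 and 17.6% lower than lab chow. The summed intensity of the 12 Kupffer cell markers on the array, kept or not, was 1394 to 3839 in restricted livers. It was 3505 to 4730 in AIN-93 livers and 2025 to 2612 in lab chow livers. Of the 9 kept markers, 1 was called lower against AIN-93 and 0 against lab chow. The 10 endothelial markers on the array summed to 1663 to 2562 under restriction and 2223 to 2996 on AIN-93. The 9 stellate cell markers on the array summed to 2960 to 4281 and 4338 to 5542. Of the kept markers (8 and 6), 1 was called lower than AIN-93 in each list. On lab chow these sums were 1713 to 2036 and 2913 to 3900. Hepatocyte markers summed to 306523 to 334495 in restricted livers and 306886 to 327617 in AIN-93 livers. The difference between 3' and 5' probes of Actb, a sign of RNA integrity, was 2.95 to 3.50 in restricted livers and 3.08 to 3.60 in AIN-93 livers. The part of these values in the member differences was not tested.

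Around the receptor, changes under diet restriction ran both ways. Beside this and the following lists, 13.5% of all genes were called higher and 16% lower than AIN-93 under diet restriction. Against lab chow these shares were 19.2% and 17.6%. Of 6 detected receptor and adaptor genes beside the members, 1 was higher and 1 lower than AIN-93, with a median log2 difference of -0.08 (-0.03 over all genes), and 1 was higher and 2 lower than lab chow, with a median of -0.12 (0.01). Gab1, a docking protein for PI3-kinase and SHP2, was higher, at 7.48, 7.43 and 7.72 in restricted livers, against 6.48, 5.63 and 6.28 in AIN-93 livers and 6.15, 5.72 and 6.18 in lab chow livers. The log2 difference was 1.42 from AIN-93 (adjusted p = 2.3e-05) and 1.53 from lab chow (adjusted p = 1.9e-06), against averages below the detection level. Grb2, an adaptor toward RAS, was 78.2% of lab chow (adjusted p = 0.0034), and the ubiquitin ligase Cbl was called lower in both comparisons but lay below the level on every array of the diets compared. Its call against lab chow was lost without lab chow replicate 1 or 3 or diet restriction replicate 2 or 3.

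Among 12 detected kinases of the PI3K, AKT and mTOR list, 1 was higher and 0 lower than AIN-93 under diet restriction (median log2 difference 0.04). Pdpk1, the kinase that phosphorylates AKT in its activation loop, was 169% of AIN-93 (adjusted p = 0.0022), with 8.33, 8.36 and 8.62 in restricted livers and 7.71, 7.40 and 7.93 in AIN-93 livers. Against lab chow, Pik3ca, a catalytic subunit of PI3-kinase, was 143% (adjusted p = 0.0057) and Pik3cd, the catalytic subunit best known from leukocytes, was 68.4% (adjusted p = 0.026), a call lost without lab chow replicate 2 or 3 or diet restriction replicate 2 or 3.

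Negative regulators of the pathway moved in both directions under diet restriction, 2 higher and 2 lower than AIN-93 among 9 detected (median log2 difference -0.11). Trib3, a pseudokinase that binds AKT, was at 6.82, 7.80 and 7.90 in restricted livers, against 5.95, 5.31 and 4.76 in AIN-93 livers, a log2 difference of 2.16 (adjusted p = 0.00021), and differed by 1.45 from lab chow (adjusted p = 0.0022), again against averages below the detection level. Ptpn2, a tyrosine phosphatase that acts on the insulin receptor, was 157% of AIN-93 (adjusted p = 0.0056) and 191% of lab chow (adjusted p = 4e-05). Ptprf, a receptor phosphatase of the same pathway, was 60.3% of AIN-93 (adjusted p = 0.0032) and 61.4% of lab chow (adjusted p = 0.0010). Grb14, which inhibits the receptor kinase, was 72.9% of AIN-93 (adjusted p = 0.021), a call lost without AIN-93 replicate 1 or 3 or diet restriction replicate 1. It was 107% of lab chow (adjusted p = 0.58), and lab chow itself was 68.2% of AIN-93 (adjusted p = 0.0056). On high fat Ptpn2 was 55.9% of AIN-93 (adjusted p = 0.00059), with 7.54, 7.38 and 7.71 in high-fat livers and 8.62, 8.17 and 8.35 in AIN-93 livers.

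Of 7 detected genes that encode FOXO regulators or relatives, 2 were higher and 1 lower than AIN-93 under diet restriction (median log2 difference 0.44). The acetyltransferases Crebbp, at 147% of AIN-93 (adjusted p = 0.0067), and Ep300, at 139.8% (adjusted p = 0.013), acetylate FOXO proteins. The Ep300 call was lost without AIN-93 replicate 2 or 3 or diet restriction replicate 3. Ywhaz, a 14-3-3 protein of the family that holds phosphorylated FOXO in the cytoplasm, was 75.0% of AIN-93 (adjusted p = 0.0039) and 67.1% of lab chow (adjusted p = 3.1e-05). Usp7, a deubiquitinase that acts on FOXO proteins, was higher than AIN-93 on the atherogenic (149%, adjusted p = 0.00051), EFA-deficient (138%, adjusted p = 0.0039) and Western diets (134%, adjusted p = 0.0080, a call lost without AIN-93 replicate 2).

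FOXO target genes, taken from textbook knowledge with Pck1 left to the members, did not move as a block. Of 20 detected targets, 7 were higher and 4 lower than AIN-93 under diet restriction, with a median log2 difference of -0.08 (-0.03 over all genes), and 7 were higher and 3 lower than lab chow, with a median of -0.01 (0.01). Igfbp1, a secreted protein that binds insulin-like growth factors and falls with insulin, was at 14.78, 13.49 and 13.48 in restricted livers, against 11.96, 8.52 and 11.86 in AIN-93 livers, or 882% (adjusted p = 0.011). That size rested on AIN-93 replicate 2, without which Igfbp1 was 403% and not called (adjusted p = 0.081), and it was 1327% without replicate 1. Against lab chow Igfbp1 was 945% (adjusted p = 0.0022). Nampt, the NAD-producing enzyme, was at 9.56, 9.16 and 9.26 in restricted livers, against 6.86, 6.94 and 6.89 in AIN-93 livers, or 541% (adjusted p = 9.6e-11). Pnpla2, the triglyceride lipase ATGL, was 334% (adjusted p = 8e-07). Gadd45a, a stress-induced gene of growth arrest, was at 4.05, 5.34 and 3.84 in restricted livers, all below the detection level, against 6.43, 7.24 and 6.57 in AIN-93 livers, and so at least 1.07-fold lower (adjusted p = 0.0062). Against lab chow the mitophagy receptor gene Bnip3 was 285% (adjusted p = 1.5e-06) and Txnip, which binds thioredoxin, was 344% (adjusted p = 0.00014).

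On the EFA-deficient diet 2 FOXO targets were higher and 1 lower than AIN-93, with 0 of 8 members called. Igfbp1 was at 13.90, 13.79 and 14.22 in EFA-deficient livers, or 912% of AIN-93 (adjusted p = 0.0097), which became 417% without AIN-93 replicate 2 (adjusted p = 0.073) and 1371% without replicate 1. Pdk4, the kinase that blocks pyruvate oxidation, was at 9.92, 10.06 and 8.55, against 6.39, 7.05 and 7.31 in AIN-93 livers, or 603% (adjusted p = 0.013), a call lost without AIN-93 replicate 1 (adjusted p = 0.056) or EFA-deficient replicate 2 (adjusted p = 0.052). Bnip3 was 61.8% of AIN-93 there (adjusted p = 0.017, lost without AIN-93 replicate 2 or EFA-deficient replicate 2), whereas under diet restriction it was 268% (adjusted p = 1.5e-05). Under diet restriction Pdk4 was at 7.84, 6.36 and 6.14 and was not called (91.0% of AIN-93, adjusted p = 0.93). Foxo1, Foxo3 and Pck1 were 82.3%, 115% and 107% of AIN-93 on the EFA-deficient diet, with adjusted p of 0.35, 0.60 and 0.92 in limma. All these comparisons share the 3 AIN-93 arrays.

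**Figure D5:**
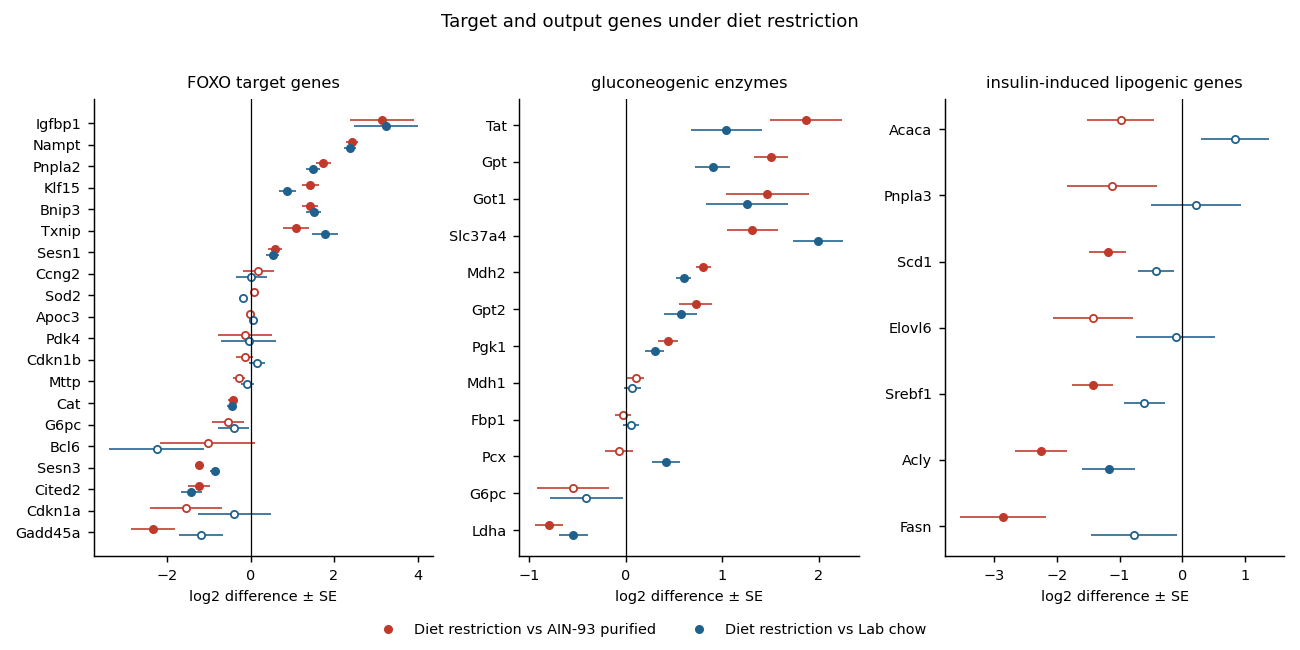
Log2 difference ± SE (x axis) of the detected FOXO targets, gluconeogenic enzymes and insulin-induced lipogenic genes (y axes) between diet restriction and AIN-93 (red) and between diet restriction and lab chow (blue). Filled points have an adjusted p below 0.05. Targets lie on both sides of 0, gluconeogenic enzymes mostly to the right, and lipogenic genes to the left of 0 against AIN-93.

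Gluconeogenic enzymes other than Pck1 were mostly higher under diet restriction: 7 of 12 were higher and 1 lower than AIN-93, with a median log2 difference of 0.58 (-0.03 over all genes), and 8 were higher and 1 lower than lab chow, with a median of 0.49 (0.01). The largest differences from AIN-93 were in genes that feed amino acid carbon into the pathway, Tat (tyrosine aminotransferase, 364%, adjusted p = 0.0021), Gpt (alanine aminotransferase, 283%, adjusted p = 5.7e-06) and Got1 (aspartate aminotransferase, 276%, adjusted p = 0.032), and in Slc37a4, the transporter that brings glucose 6-phosphate into the endoplasmic reticulum (248%, adjusted p = 0.0022). Against lab chow these 4 were 206%, 187%, 238% and 397%, each called. Without diet restriction replicate 1, Got1 was 181% of AIN-93 (adjusted p = 0.17) and 156% of lab chow (adjusted p = 0.22). Its call was also lost against AIN-93 without AIN-93 replicate 1 or 2 or diet restriction replicate 3, and against lab chow without lab chow replicate 1 or 3. The Tat call against lab chow was lost without lab chow replicate 1 or 3 or diet restriction replicate 1. Ldha, lactate dehydrogenase, was the gene that fell, to 57.8% of AIN-93 (adjusted p = 0.0012). G6pc, the glucose-6-phosphatase at the last step and likewise a FOXO target, was named after its values were seen. It was at 12.82, 10.82 and 11.34 in restricted livers, against 11.40, 12.69 and 12.51 in AIN-93 livers, which overlapped, and was not called (68.8%, adjusted p = 0.41). Pcx, Fbp1 and Mdh1 were also named after their values were seen. None was called against AIN-93, at 95.6%, 98.5% and 107.6% (adjusted p = 0.84, 0.91 and 0.52). Against lab chow Pcx was called, at 134% (adjusted p = 0.03), while Fbp1 and Mdh1 were not.

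Lipogenic genes that insulin induces lay lower against AIN-93: 4 of 7 fell and 0 rose under diet restriction, with a median log2 difference of -1.43. Fasn (fatty acid synthase) was 13.8% of AIN-93 (adjusted p = 0.0094), Acly (ATP citrate lyase) 20.9% (adjusted p = 0.0012), the transcription factor gene Srebf1 37.2% (adjusted p = 0.0065) and the desaturase gene Scd1 43.8% (adjusted p = 0.012). Against lab chow only Acly passed, at 44.4% (adjusted p = 0.034), and the median was -0.42. A lower median than AIN-93 was not particular to diet restriction. It was -1.32 on lab chow, -1.25 on Western, -1.12 on high fat, -0.76 on atherogenic and -0.58 on low n-3. The median was above AIN-93 on high fructose (1.29) and the EFA-deficient diet (0.64). The restricted livers were far apart for Fasn, at 7.75, 11.05 and 9.68, and Fasn was 25.2% of AIN-93 without replicate 1 (adjusted p = 0.060) and 8.04% without replicate 2. Calls were also lost for Fasn without AIN-93 replicate 3, for Scd1 without AIN-93 replicate 2 or 3 or diet restriction replicate 1, and for Acly against lab chow without diet restriction replicate 1 or any lab chow liver. On high fructose, where Pik3r1 fell, 3 of 7 rose: Acaca (349%, adjusted p = 0.038), Acly (267%, adjusted p = 0.037) and Pnpla3 (adjusted p = 0.026). Pnpla3 was at 7.01, 6.52 and 6.33 in high-fructose livers, against 2.94, 3.12 and 6.11 in AIN-93 livers, and gets no fold because both means lay below the detection level. The 3 calls were lost without AIN-93 replicate 1 or 2 or without high-fructose replicate 1 or 2, and those of Acaca and Acly also without high-fructose replicate 3.

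Of 15 detected glucagon, cyclic AMP and PGC-1 partners, 3 were higher and 1 lower than AIN-93 under diet restriction (median log2 difference 0.00), and 4 were higher and 2 lower than lab chow. Ppargc1b, the paralog of Ppargc1a, was at 7.82, 7.98 and 8.50 in restricted livers, against 6.94, 6.50 and 6.54 in AIN-93 livers, or 271% (adjusted p = 0.00053). On the EFA-deficient diet Ppargc1b was at 5.28, 5.10 and 4.72, all below the detection level, and so at least 1.01-fold lower than AIN-93 (adjusted p = 0.00014). Ppara, the nuclear receptor of fasting fat oxidation, was 224% of AIN-93 under diet restriction (adjusted p = 0.00018). The catalytic subunits of protein kinase A moved in opposite directions, Prkaca at 50.2% (adjusted p = 4.3e-08) and Prkacb at 170.5% (adjusted p = 3.4e-07). Lpin1, a phosphatidate phosphatase that also binds PGC-1α, was at 13.65, 13.09 and 13.24 in restricted livers, against 9.23, 10.26 and 8.12 in lab chow livers, or 1746% (adjusted p = 0.00024). AIN-93 livers were at 10.83, 12.71 and 11.19, and against them Lpin1 was 336% and not called (adjusted p = 0.16).

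The members varied together mainly through diet restriction. Over 27 arrays, the Pearson correlation was 0.85 between Foxo1 and Pck1, 0.80 between Foxo1 and Foxo3, and 0.64 between Ppargc1a and Pck1. Over the 24 arrays without diet restriction these were 0.58, 0.47 and 0.08. Insr and Akt2 gave -0.31 over 27 arrays and -0.67 over 24, and Pik3r1 and Akt2 gave -0.59 in both. The arrays of a diet are not independent points here, and no test was made. The genes most like Foxo1 among all detected were Pptc7 (0.93), Usp2 (0.92) and Coq10b (0.90), and those most like Foxo3 were Per1 (0.84), Ndel1 (0.84) and Brap (0.84). Most like Pck1 were Zfp385b (0.91), Sfxn1 (0.86) and Slc7a2 (0.86), and most like Ppargc1a were Baiap2l1 (0.88), Ppp1r3g (0.88) and Cyp39a1 (0.87). Polg2 (0.90), Manea (0.89) and Stard7 (0.88) were most like Insr. Lower values were reached for Akt2 by Ube2v1 (0.81), Cct7 (0.79) and Ifitm2 (0.76), for Pik3r1 by Rnd3 (0.76), Phldb2 (0.74) and Cdh2 (0.73), and for Irs1 by Usf3 (0.69), Prox1 (0.67) and Bcar3 (0.67). Without diet restriction, Pptc7 still had 0.70 with Foxo1 and Zfp385b 0.77 with Pck1.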

How the data were processed

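Liver RNA of 27 mice was hybridized to Affymetrix mouse arrays, 1 per mouse. The authors had background-corrected and normalized the deposited log2 values with GCRMA, and these were used as given. Of 45101 probes, 34958 carry a single gene symbol in the platform annotation (those with several were left out), and 10582 probes (6478 genes) were kept. Groups came from the labels. Members and gene lists were chosen with earlier results of these data known. limma 3.58.1 (R 4.3.3) was fitted over all arrays on gene means of kept probes, with Benjamini-Hochberg adjustment over 8 diets and all genes together, and the comparisons with lab chow and Western were adjusted on their own. Named genes are all members, up to 4 called genes with the largest differences per list and comparison, and the 3 genes most correlated with each member. Replicate numbers were not used to pair the samples in the main fit. Alternatives concerned the filter, probe averaging, normalization, adjustment, prior, array weights, Dunnett's test, samples fitted and each array left out. Where every kept probe of a gene lay below log2(100) on all arrays of 1 group, the fold is a bound against that level, and none is given where the other group's mean was below it too. Promoter sequences are from RefSeq (GRCm38.p6). Tables and plots used Python 3.11.15, numpy 2.4.6, pandas 2.3.3, scipy 1.17.1 and matplotlib 3.10.9. The number of arrays limits the precision.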

Additional observations from a re-analysis of the deposited data

How the results depend on the processing

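Of 1408 alternatives tried for single members, 1374 stayed on the same side of the threshold, 22 lost and 12 gained a call, and none reversed a called difference. Another 70 changed sign while called under neither setting. The 5 calls of diet restriction against AIN-93 ranged between 4 and 5 when an array was left out, with Insr the call that was lost. Against lab chow the 5 calls ranged between 5 and 6. The call gained was Irs2, which passed the filter there only because its lowest restricted liver was left out. With array weights the number of members called was 2 on lab chow, 1 on high fat, 2 on the Western diet and 4 on the atherogenic diet, against 0, 0, 1 and 0, while the share of all genes called was 14.1%, 22.8%, 17.8% and 27.8%. With no filter it was 0 on high fructose and 0 for atherogenic against Western, where the numbers were 1 and 2, and 4 under diet restriction against AIN-93, where Insr was lost. With only the diets compared in the fit it was 0 on high fructose, 0 on the Western diet and 3 for atherogenic against Western, which lost Akt2 and gained Foxo3 and Pck1. With the probe of highest mean it was 0 on the Western diet and 1 for atherogenic against Western. Centring arrays on the median, repeating the quantile normalization and averaging all single-symbol probes each left 1 for atherogenic against Western, and averaging all probes also lost Insr under diet restriction against AIN-93. With an array left out the number was 0 to 1 on high fat, 0 to 1 on the Western diet, 0 to 1 on the atherogenic diet, and 0 to 2 for atherogenic against Western. Of 118 called differences of list genes named by rule, 62 were lost without at least 1 array (14 of 51 under diet restriction). The cause was not tested. By construction, no filter adds genes to the adjustment and unkept probes to the gene averages, and leaving out arrays or diets removes samples. With no filter the log2 difference of Insr between diet restriction and AIN-93 was 0.20, as with all its probes averaged. With the replicate number as a block, the number of calls was 5 under diet restriction against either diet and 1 on high fructose, as without it. Same-numbered arrays correlated over 0.1 in 6 of 30 pairs (-0.16 to 0.24). Among arrays of other diets, 17 of 27 arrays correlated best with one of their own number. The labels do not say what the number stands for, and a step shared by same-numbered arrays was not tested. Values near the detection level (Foxo1, Ppargc1a, Irs2) are less certain in size than those well above it.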
